A study of Mus musculus with 3 samples.

Results

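The genes described are the integrin subunits and the adaptors that tie integrins to the actin cytoskeleton, as measured by bulk RNA-seq in adult lung endothelial cells (ECs). Members were chosen by gene symbol: every symbol of an integrin alpha or beta chain in the table, plus 12 named adaptors. The rule uses no measured value, although the set was proposed with earlier results of these data known. The rule gave 38 of 24346 genes, of which 18 are alpha subunits, 8 are beta subunits and 12 are adaptors. The study profiles the vasculature of the kidney against that of other organs, and only its adult lung ECs are described here. There were 3 libraries, named S38, S44 and S52, and all belonged to 1 condition, so no difference between conditions could be tested. The cells came from wild type male C57BL/6J mice aged 6 to 8 weeks, freshly isolated and untreated apart from the labelling antibody. A fluorescent antibody to VE-cadherin was injected into the circulation before the lungs were taken, and the dissociated cells were stained for CD31, CD45 and podoplanin and sorted by FACS. The libraries were made from poly-A RNA without strand information and read as pairs of 51 bp. The labels do not say whether the libraries came from separate mice, so the SDs given here measure the spread between these libraries, which may be technical. With 3 libraries the smallest p-value of an exact two-sided sign-flip test is 0.25, so differences between libraries are given as values without a test.

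Integrins are adhesion receptors built from an alpha and a beta chain, and the pair decides which matrix protein or cell-surface ligand is bound. Talin and kindlin bind the cytoplasmic tail of the beta chain and switch the receptor to its active state. ILK, the parvins, vinculin, paxillin and focal adhesion kinase (FAK) then join the cluster and connect it to actin and to signalling. In the vessel wall these receptors hold ECs on the laminin and collagen of the basement membrane, while platelets and leukocytes carry chains of their own for clotting and for attachment to endothelium.

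The values are FPKM, fragments scaled to gene length and library size, as the authors deposited them. Wherever 3 values are given in a row, their order is S38, S44, S52. Detection means that the mean over libraries reached 1 FPKM. The label of the cells was checked against 8 endothelial markers, whose median was 480, 533 and 484 FPKM, and 0 of the 8 differed over 2-fold between libraries. VE-cadherin itself (*Cdh5*) was at 877, 978 and 908 FPKM. Its gene and *Pecam1*, the gene of CD31, are among the 8 markers. Both proteins were labelled for the sort, so these genes are no independent check of the label. Transcripts of other cells were present too, and library S52 stood apart in them. All 9 platelet markers were over 2-fold lower in S52 than in both other libraries, with a summed level of 2303, 1842 and 56.1 FPKM, and none of them was at 0. Of 13 leukocyte markers 11 were detected and 7 of these were over 2-fold lower in S52 than in both others. Of the 7, *Ptprc*, *S100a8* and *Nkg7* reached the detection limit only through S38 and S44. The summed level of the 13 was 1167, 895 and 185 FPKM, of which *Lyz2* alone gave 1047, 780 and 166 FPKM. *Cd3e*, *Cd3g* and *Nkg7* were at 0 in S52. The 5 alveolar type 2 markers summed to 3778, 3164 and 755 FPKM, and all 5 were over 2-fold lower in S52 than in both others. The estimated depth ranged from 33.9 M (S52) to 38.8 M (S44) fragments, where M stands for 1e6. In bulk samples fewer cells of a type and less RNA per cell cannot be told apart.

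Of the 38 members 28 (73.7%) were detected, against 48.3% of all 24346 genes in the table. A mean of 10 FPKM was reached by 20 members, where the median of all detected genes was 11.2 FPKM. By class, 11 of 18 alpha subunits, 6 of 8 beta subunits and 11 of 12 adaptors were detected. The highest member was *Itgb1*, the beta1 chain shared by most matrix-binding integrins, at 333, 333 and 363 FPKM, which placed its mean of 343 ± 16.9 FPKM (SD, n = 3) at rank 309 of all genes. It was followed by *Fermt2* (kindlin-2), the kindlin of most solid tissues, at 198, 189.6 and 236 FPKM. At the other end 10 members had a mean below 1 FPKM, namely *Itga7*, *Itga10*, *Itga11*, *Itgad*, *Itgae*, *Itgam*, *Itgax*, *Itgb6*, *Itgb8* and *Fermt1*, and none of these was at 0 in every library. On the scale of log2(FPKM + 1), 7 of the 28 detected members (25%) differed over 2-fold between their highest and lowest library, against 12.7% of 11770 detected genes. In 6 of them (21.4% of detected members, against 4.83% of detected genes) S52 was over 2-fold below both other libraries. No member was over 2-fold above both others in S52, where 0.969% of detected genes were. The 6 were *Itga2b*, *Itgb3*, *Itgal*, *Itgb2*, *Fermt3* and *Itgb5*, and the first 5 are genes of platelets and leukocytes.

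**Figure D1:**
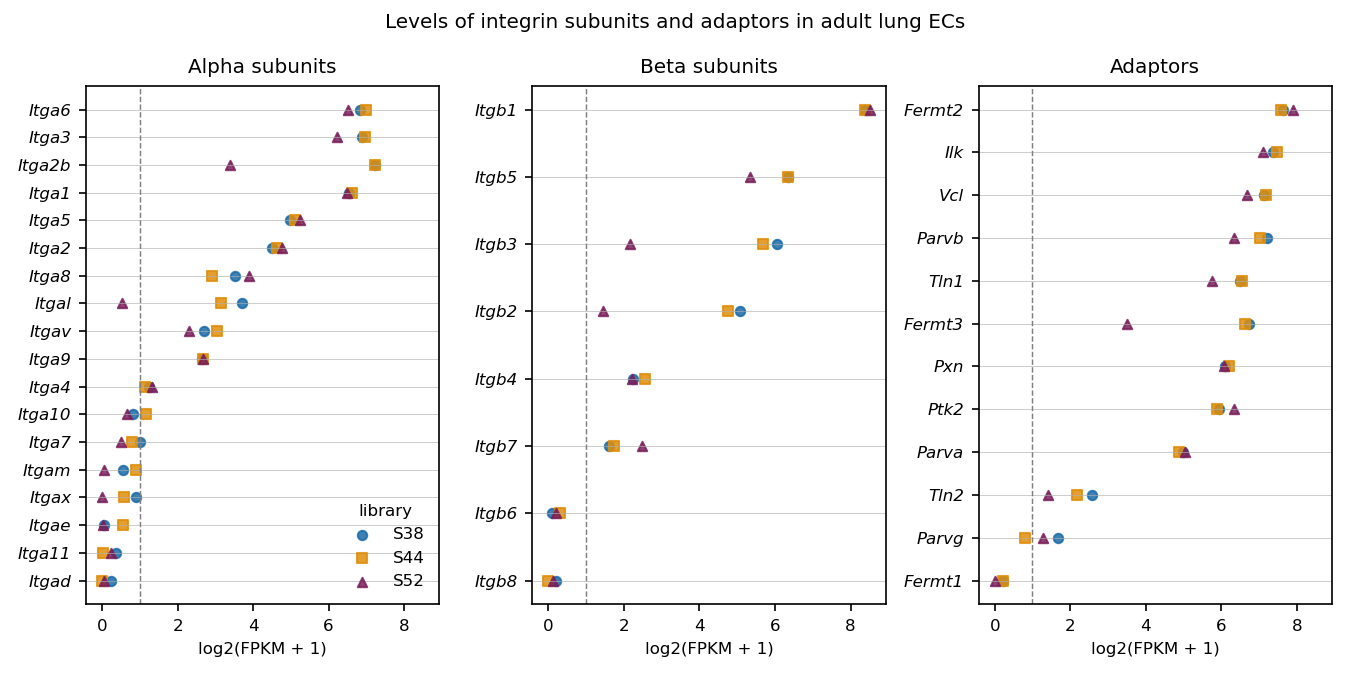
Level of each member in each of the 3 libraries, as log2(FPKM + 1) on the horizontal axis, with alpha subunits, beta subunits and adaptors in separate panels ordered by mean and a dashed line at 1 FPKM. The library S52 (triangles) lies far to the left of the other 2 for *Itga2b*, *Itgal*, *Itgb3*, *Itgb2* and *Fermt3*, while *Itgb1* and *Fermt2* are highest in S52.

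The promoter sequences of 4 members are shown as examples of the main contrast in the values. *Itgb1* and *Fermt2* are widely expressed and were high in every library, whereas *Itga2b* and *Fermt3*, the platelet alpha chain and the kindlin of blood cells, were high in S38 and S44 and about 10 FPKM in S52. Each is the RefSeq window on GRCm38.p6 from 250 bases before to 50 bases after the transcription start, written 5′ to 3′ on the gene's strand, with every CG dinucleotide in capitals. They lie at chr8:128685404-128685703 on the plus strand (*Itgb1*), chr14:45530016-45530315 on the minus strand (*Fermt2*), chr11:102469834-102470133 on the minus strand (*Itga2b*) and chr19:7019420-7019719 on the minus strand (*Fermt3*).
Itgb1: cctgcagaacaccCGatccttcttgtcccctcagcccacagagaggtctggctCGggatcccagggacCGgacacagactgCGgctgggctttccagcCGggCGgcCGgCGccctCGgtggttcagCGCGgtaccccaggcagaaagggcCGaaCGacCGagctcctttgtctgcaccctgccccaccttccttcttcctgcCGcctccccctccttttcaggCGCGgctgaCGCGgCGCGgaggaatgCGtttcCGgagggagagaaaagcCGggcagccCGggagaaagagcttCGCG
Fermt2: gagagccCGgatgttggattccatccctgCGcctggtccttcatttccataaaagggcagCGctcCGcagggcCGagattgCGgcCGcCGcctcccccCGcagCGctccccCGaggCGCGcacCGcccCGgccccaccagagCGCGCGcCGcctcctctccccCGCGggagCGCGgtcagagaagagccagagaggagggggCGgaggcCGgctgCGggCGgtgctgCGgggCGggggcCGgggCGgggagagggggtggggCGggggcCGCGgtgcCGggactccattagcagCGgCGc
Itga2b: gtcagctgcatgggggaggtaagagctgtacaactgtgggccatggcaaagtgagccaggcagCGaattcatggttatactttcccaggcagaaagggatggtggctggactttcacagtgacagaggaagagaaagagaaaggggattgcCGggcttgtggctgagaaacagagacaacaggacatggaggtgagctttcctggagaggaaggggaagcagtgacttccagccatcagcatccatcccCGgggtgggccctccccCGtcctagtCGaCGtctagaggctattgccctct
Fermt3: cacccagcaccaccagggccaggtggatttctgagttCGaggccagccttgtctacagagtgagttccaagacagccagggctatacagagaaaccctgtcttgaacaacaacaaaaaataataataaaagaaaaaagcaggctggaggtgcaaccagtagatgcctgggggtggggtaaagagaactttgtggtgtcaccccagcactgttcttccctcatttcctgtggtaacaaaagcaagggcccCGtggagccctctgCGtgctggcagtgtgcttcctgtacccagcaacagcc

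The *Fermt2* window held 37 CG dinucleotides, a number reached by 5.58% of all 32851 mouse promoter windows, and the *Itgb1* window held 27, reached by 15.5%. The *Itga2b* window held 6, which 56.4% of all windows reached, and that of *Fermt3* held 3, which 76.7% reached. Promoter windows were found for 26 of the 38 members, 30 windows in all. Those of the widely expressed members (11 windows of 10 genes) held 12 to 37 CG with a median of 24, and those of the blood-cell members (7 windows of 6 genes) held 3 to 11 with a median of 6. These ranges do not overlap, but no window was found for *Itgb3*, *Itgb2* and *Itgal*, blood-cell members that were also lower in S52. Nor was one found for the blood-cell *Itgad* and *Itgae* or the widely expressed *Itga6*, *Tln2*, *Parva*, *Pxn* and *Ptk2*. The blood-cell range also holds the windows of *Parvg* (6 and 11 CG) and *Itgb7* (5 CG), detected genes that were not lowest in S52. *Itgam* (6 CG) and *Itgax* (5 CG) were not detected. Among detected blood-cell genes with a window, only *Itga2b* and *Fermt3* were over 2-fold lower in S52. The windows of *Itga2* (13 CG) and *Itga4* (10 CG), which platelets and lymphocytes also carry, are in neither list. That of *Itga2* lies within the range of the widely expressed members, as does that of *Itga8* (23 CG), also in neither list. The median over all windows was 7. The GATA motif (GATA or, on the other strand, TATC) was found in 57.9% of all windows. It was in 57.1% of the blood-cell windows, 18.2% of the widely expressed ones and 83.3% of the epithelial ones (6 windows of 4 genes). The windows of *Itga2b* and *Fermt3* each held 0 GATA motifs. The ETS core GGAA (or TTCC on the other strand) was found in 96.0% of all windows and therefore separates little. These are counts of letters in a window and not of bound sites.

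**Figure D2:**
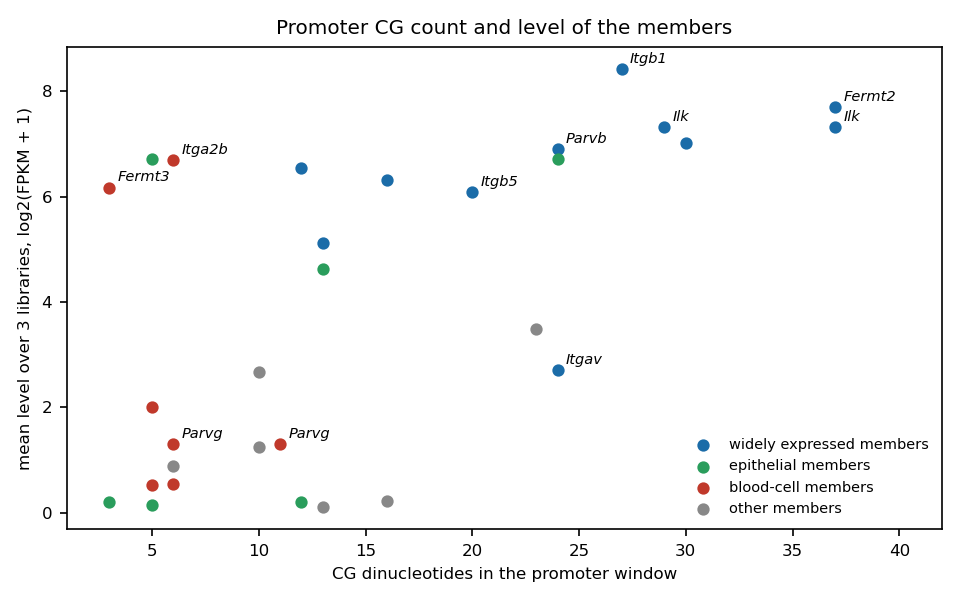
CG dinucleotides in the 300-base promoter window (horizontal axis) against the mean level of the gene over 3 libraries as log2(FPKM + 1) (vertical axis), with 1 point for each of 30 windows of 26 members. Among members with a window, the blood-cell members (red) lie at 11 CG or fewer at every level, and the widely expressed members (blue) at 12 or more. No window was found for the blood-cell members *Itgb3*, *Itgb2*, *Itgal*, *Itgad* and *Itgae*. None was found for the widely expressed members *Itga6*, *Tln2*, *Parva*, *Pxn* and *Ptk2* either. The epithelial members (green, 3 to 24 CG) and the other members (grey) lie on both sides.

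The alpha chains set which ligand an EC can grip. The highest 4 were *Itga6*, *Itga3*, *Itga2b* and *Itga1*, with means from 92.5 to 109 FPKM, and each had a range over libraries that overlapped that of its neighbour. *Itga6* and *Itga3* encode the alpha6 and alpha3 chains of laminin receptors. *Itga6* was at 112, 126 and 89.6 FPKM and *Itga3* at 116, 123 and 73.2 FPKM. Both were lowest in S52, by less than 2-fold. The third laminin-binding chain, *Itga7*, best known from muscle, was at 1.02, 0.735 and 0.403 FPKM. *Itga1*, a collagen receptor chain prominent on capillary ECs and mural cells, was at 92.4, 97.0 and 88.0 FPKM (92.5 ± 4.52, SD, n = 3) and varied little between libraries. Its neighbour on chromosome 13, *Itga2*, the collagen receptor chain of platelets and epithelia, lies 21.0 kb away and was at 21.4, 23.6 and 26.4 FPKM. The ratio of *Itga1* to *Itga2* in FPKM was 3.92 ± 0.515 (SD, n = 3). Although *Itga2* is also a platelet chain, its highest value was in S52, the library with the lowest platelet markers. The other collagen-binding chains were low, with *Itga10* at 0.760, 1.25 and 0.572 FPKM and *Itga11* at 0.297, 0.0214 and 0.178 FPKM. The value of *Itga10* is uncertain because 34.5% of its exon bases also belong to the overlapping gene model Gm42957.

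Among the chains that bind ligands with an RGD sequence, *Itga5*, the fibronectin receptor chain of angiogenic and cultured ECs, was at 30.7, 33.7 and 36.6 FPKM. It was below *Itga1* and above *Itga2* in all 3 libraries, and these ranges did not overlap. *Itga8*, the nephronectin receptor chain of mural and other mesenchymal cells, was at 10.4, 6.58 and 13.7 FPKM. Of the 6 mural markers 0 were over 2-fold lower in S52 than in both other libraries, and their summed level was 201, 120.6 and 189.5 FPKM, so *Itga8* and this sum were both lowest in S44. The part of such cells in the *Itga8* level was not tested. *Itgav*, the alphav chain that pairs with more beta chains than any other RGD-binding chain, was only at 5.53, 7.18 and 3.95 FPKM. *Itga9* was the steadiest alpha chain, at 5.30, 5.43 and 5.42 FPKM, and *Itga4*, best known for lymphocyte homing, was at 1.37, 1.20 and 1.52 FPKM. From *Itga8* down to *Itga9* (means of 10.2 to 5.38 FPKM) each neighbour in the order overlapped the next, so that their order is not settled by these libraries.

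*Itga2b*, the alphaIIb chain of the platelet fibrinogen receptor, was at 149, 148 and 9.54 FPKM. The first 2 libraries were nearly equal and S52 was 15.7 times lower than the highest, a difference of -3.83 on the log2(FPKM + 1) scale from the mean of the other 2. In S38 and S44 it made up 26.6% and 25.3% of all alpha subunit FPKM and was the highest alpha chain, while in S52 it made up 2.73%. In S52 the order was *Itga6* (25.6% of alpha FPKM), *Itga1* (25.2%) and *Itga3* (20.9%). The share of *Itga3* hardly moved over the libraries (20.8%, 21.1% and 20.9%). The 5 alpha chains of leukocytes were lower. *Itgal*, the alphaL chain of LFA-1, was at 11.9, 7.85 and 0.429 FPKM and was the only one detected. *Itgam* (macrophages and neutrophils) was at 0.465, 0.870 and 0.0390 FPKM and *Itgax* (dendritic cells and macrophages) at 0.857, 0.483 and 0 FPKM. *Itgad* was at 0.173, 0 and 0.0386 FPKM, and *Itgae*, the chain of intraepithelial T cells, at 0.0358, 0.466 and 0.00801 FPKM. The zero of *Itgax* in S52 allows a level of up to 0.0227 FPKM, that of *Itgad* in S44 up to 0.0196 FPKM, taking 3 fragments as the limit of counting error only. The *Itgam* value is uncertain, since 70.0% of its exon bases overlap the model Gm49368. So is that of *Itgad*, where 19.4% of read-length stretches also occur in other genes, its neighbour *Itgax* among them.

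*Itgb1* was far above every other beta chain. It made up 64.3%, 66.9% and 87.2% of all beta subunit FPKM in S38, S44 and S52 (72.8 ± 12.6%, SD, n = 3), and its own level moved by a factor of 1.09 between libraries, so its higher share in S52 came with lower levels of other chains. Next was *Itgb5*, which pairs with alphav as a vitronectin receptor, at 81.0, 80.7 and 39.5 FPKM. S38 and S44 were nearly equal and S52 was 2.05 times lower than the highest, just past the 2-fold limit, and within it once the libraries were rescaled by their median ratio. *Itgb3*, the partner of alphaIIb on platelets and of alphav elsewhere, was at 65.5, 50.5 and 3.48 FPKM. *Itgb2*, the common beta chain of leukocyte integrins, was at 32.9, 26.3 and 1.71 FPKM. In both genes S38 was highest and S52 was far below S44, the lower of the other 2, with a difference of -3.52 for *Itgb3* and -3.33 for *Itgb2* on the log2(FPKM + 1) scale. In every library *Itgb5* was above *Itgb3* and *Itgb3* above *Itgb2*, although the ranges of neighbours overlap. *Itgb7*, which pairs with alpha4 and alphaE on lymphocytes, went the other way, at 2.02, 2.36 and 4.60 FPKM, highest in S52. *Itgb4*, the hemidesmosome chain of epithelia, was at 3.76, 4.88 and 3.60 FPKM. The epithelial *Itgb6* was at 0.0682, 0.226 and 0.146 FPKM and *Itgb8* at 0.143, 0 and 0.0800 FPKM, where the zero in S44 allows up to 0.00937 FPKM.

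**Figure D3:**
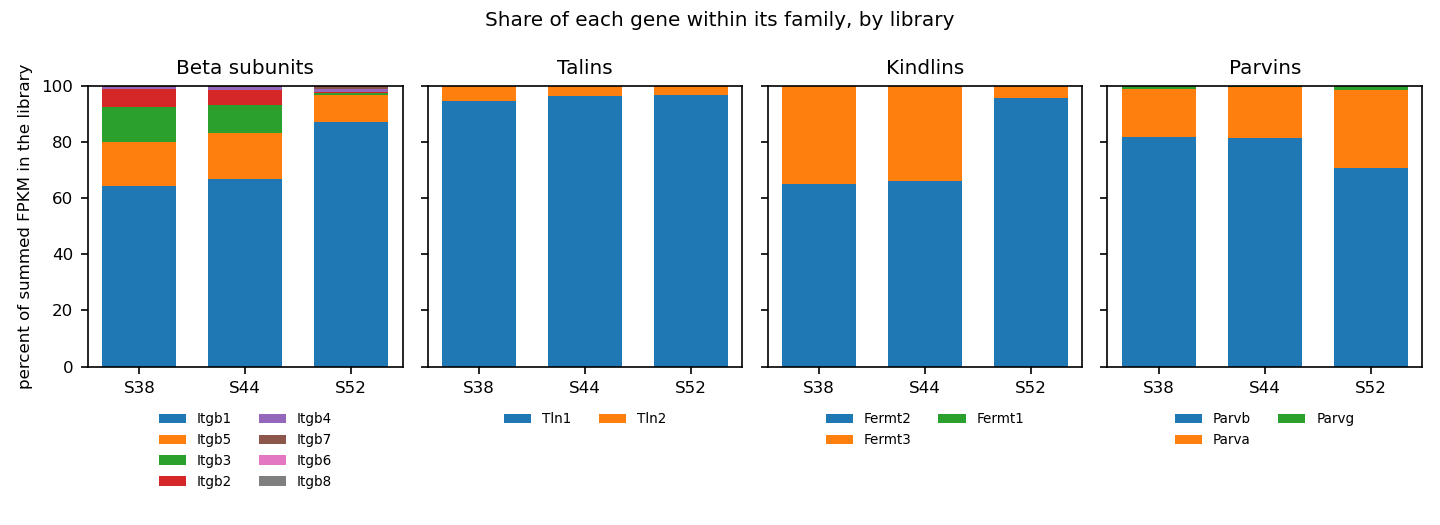
Percent of the summed FPKM of each family taken by each gene in S38, S44 and S52, as stacked bars for beta subunits, talins, kindlins and parvins. *Itgb1* takes 64.3% to 87.2% of beta FPKM and *Fermt2* 65.1% to 95.8% of kindlin FPKM, both most in S52, while *Tln1* takes 94.7% to 97.0% of talin FPKM throughout.

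Because the chains work in pairs, each beta chain was set against the summed FPKM of its known alpha partners. For *Itgb1* the 12 partner chains summed to 398, 426 and 339 FPKM, and the ratio of beta to alpha was 0.838, 0.783 and 1.07, close to equal amounts of transcript. For *Itgb5* the only partner listed is *Itgav*, and the beta chain exceeded it by 14.6, 11.2 and 10.0 times. The reverse held for *Itgb4*, whose partner *Itga6* was 29.8, 25.8 and 24.8 times higher. For *Itgb2* the 4 leukocyte alpha chains summed to 13.4, 9.21 and 0.507 FPKM, so that the beta chain was in excess by 2.44, 2.85 and 3.36 times. *Itga2b* and *Itgb3* differed between libraries together, with a ratio of 2.28, 2.92 and 2.75 (2.65 ± 0.333, SD, n = 3) while the level of each moved over 15-fold. Their genes lie 2138 kb apart on chromosome 11. The ratio of *Itgal* to *Itgb2* was 0.364, 0.299 and 0.252 (0.305 ± 0.0562, SD, n = 3), over levels that moved by 27.8 and 19.3 times. Transcript ratios do not give the ratio of the proteins.

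**Figure D4:**
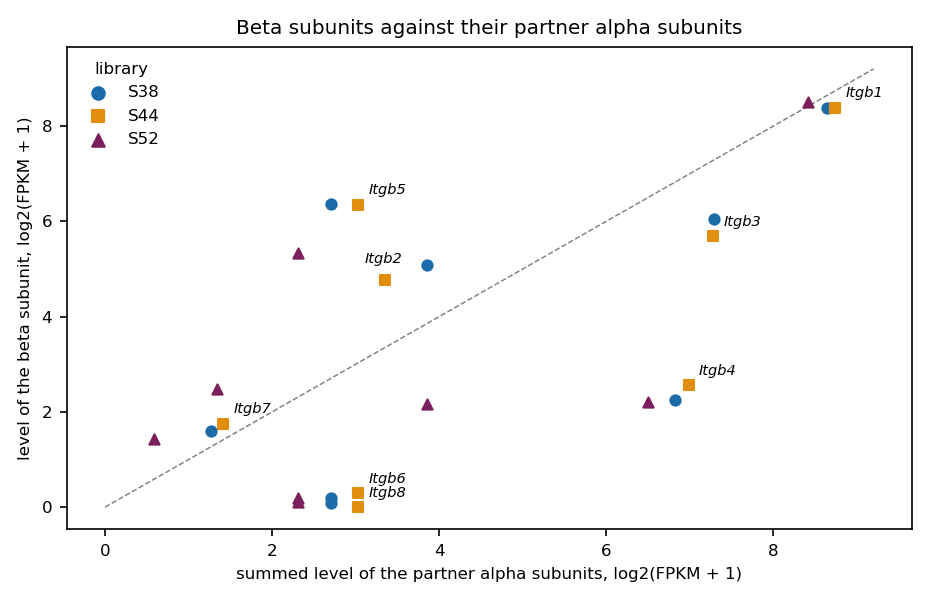
Level of each beta subunit (vertical axis) against the summed level of its alpha partners (horizontal axis), both as log2(FPKM + 1), with 1 point per library and the dashed line at equal levels. *Itgb1* lies a little below the line in S38 and S44 and a little above it in S52, *Itgb5* above it and *Itgb4* below it, and *Itgb3* and *Itgb2* are lower on both axes in S52.

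Talin carries the force from integrin to actin. *Tln1*, the talin of most cells, was at 89.8, 92.2 and 52.7 FPKM, lowest in S52 by 1.75 times. *Tln2*, the paralogue of muscle and brain, was at 4.98, 3.54 and 1.66 FPKM, and its highest and lowest libraries differed over 2-fold. *Tln1* took 96.0 ± 1.13% of talin FPKM (SD, n = 3). The transcripts of these 2 genes share no stretch of read length with each other.

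Kindlins act together with talin in switching integrins on. *Fermt2* was higher in S52 (236 FPKM) than in S38 and S44 (198 and 189.6 FPKM), by less than 2-fold. *Fermt3* (kindlin-3), which activates the integrins of platelets and leukocytes, was at 106, 97.2 and 10.4 FPKM, a difference of -3.16 on the log2(FPKM + 1) scale. As a result *Fermt2* took 65.1%, 66.1% and 95.8% of kindlin FPKM, and the ratio of *Fermt2* to *Fermt3* was 1.87, 1.95 and 22.6. *Fermt1*, the kindlin of epithelia, was at 0.160, 0.165 and 0 FPKM, and the zero in S52 allows up to 0.0186 FPKM.

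ILK, a pseudokinase, forms a complex with PINCH and a parvin at the beta tail. *Ilk* was at 165, 177 and 137 FPKM. This value is uncertain, because 98.7% of its exon bases are overlapped by *Taf10* (42.8 FPKM) and *Rrp8* (4.61 FPKM) on the opposite strand and the libraries kept no strand. Of its parvin partners *Parvb* was highest, at 147, 128 and 80.1 FPKM, with *Parva*, the more widely expressed parvin of most tissues, at 30.8, 28.4 and 31.6 FPKM. *Parvb* was above *Parva* in every library, with 78.0 ± 6.21% of parvin FPKM (SD, n = 3), and the ranges did not overlap. The blood-cell parvin *Parvg* was at 2.19, 0.748 and 1.42 FPKM, although its gene starts only 8.34 kb beyond the end of *Parvb* on chromosome 15. Unlike the other detected blood-cell members apart from *Itgb7*, *Parvg* was not lowest in S52.

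*Vcl* encodes vinculin, which reinforces the link from talin to actin, and was at 139, 143 and 102 FPKM, with 39.7% of its exon bases overlapped by *Ap3m1* (17.1 FPKM) on the opposite strand. *Pxn* (paxillin), a scaffold of focal adhesions, was at 67.8, 72.8 and 66.8 FPKM and was among the steadiest members (69.1 ± 3.21, SD, n = 3). *Ptk2* (FAK), the kinase recruited by paxillin, was at 60.0, 58.1 and 80.5 FPKM and highest in S52. In the order of means, *Fermt2* stood clear of *Ilk*. From *Ilk* to *Ptk2* (159.5 to 66.2 FPKM) the neighbours overlapped, *Ptk2* stood clear of *Parva*, and *Parva* of *Tln2*.

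Members were grouped by the cells they are commonly linked with. The lists are coarse, since *Tln2* is counted as widely expressed, *Itga2* as epithelial although platelets carry it too, and *Itga4* in none of them although lymphocytes carry it. All 15 widely expressed members were detected. Their median difference of S52 from the mean of S38 and S44 was -0.32 on the log2(FPKM + 1) scale, with a range from -1.01 (*Itgb5*) to 0.44 (*Ptk2*), against a median of -0.07 over all detected genes. Of these 15, 2 (13.3%) differed over 2-fold between libraries (*Itgb5* and *Tln2*), near the 12.7% of all detected genes. Of the 5 epithelial members 3 were detected (*Itga2*, *Itga3* and *Itgb4*), with differences from -0.70 to 0.22 and 0 over 2-fold. Of the 11 blood-cell members 7 (63.6%) were detected, against 48.3% of all genes, and 5 of the 7 (*Itga2b*, *Itgb3*, *Itgal*, *Itgb2* and *Fermt3*) were over 2-fold lower in S52 than in both other libraries, with differences from -3.83 to -2.90. Over all detected genes 4.83% were lower in S52 in this way. *Itgal* reached the detection limit only through S38 and S44. The other two, *Parvg* and *Itgb7*, were at 0.04 and 0.81. The median over the 7 was -3.16, and over all 11, with the 4 undetected leukocyte alpha chains, it was -0.73. With *Itga2* (0.22) and *Itga4* (0.14) added to the list, a choice made after seeing the data, 5 of 9 detected genes were lower in S52 and their median was -2.90. The summed level of the 11 was 371, 334 and 31.7 FPKM, and that of the 27 remaining members was 1718, 1738 and 1533 FPKM.

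These 5 genes were lower in the same library as the markers of platelets and leukocytes. The median difference of the 9 platelet markers was -3.98, with a range from -6.01 to -2.21, and that of the 11 detected leukocyte markers was -1.89, with a range from -3.73 to -0.14. The median of the 8 endothelial markers was 0.02, with a range from -0.64 to 0.74. Staining for CD45 serves to leave out leukocytes, and *Ptprc*, the gene of CD45, was at 4.30, 2.06 and 0.434 FPKM. The part of platelets and leukocytes in the levels of the 5 genes was not tested. S52 also had the lowest alveolar type 2 markers, with a median difference of -2.08.

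**Figure D5:**
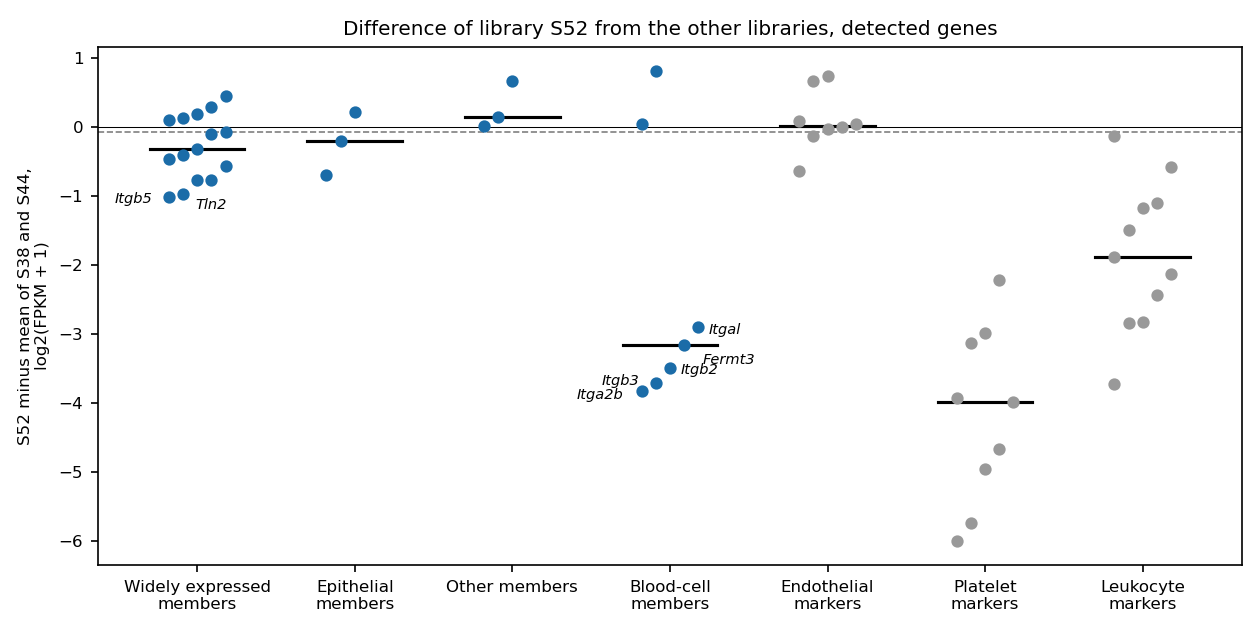
Difference of S52 from the mean of S38 and S44 on the log2(FPKM + 1) scale for detected genes, with 1 point per gene, black bars at the median of each group and a dashed line at the median of all detected genes (-0.07). Of the blood-cell members 5 lie between -3.83 and -2.90, inside the wide range of the platelet markers (-6.01 to -2.21). All of these but *Itga2b* also lie inside the range of the leukocyte markers (-3.73 to -0.14). The other member groups and the endothelial markers lie between -1.01 and 0.74.

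Of 47 other genes of integrin adhesion, 45 (95.7%) were detected, against 48.3% of all genes. A mean of 10 FPKM was reached by 37, where the median of all detected genes was 11.2 FPKM. The highest were the small GTPases *Rap1b* (489, 484 and 433 FPKM) and *Rap1a* (213, 174 and 159 FPKM), which act upstream of talin. Next came the actin crosslinker *Actn4* (169, 189.6 and 183 FPKM), the talin-binding *Kank3* (151, 158 and 128 FPKM), *Rsu1* of the PINCH complex (146, 143 and 129 FPKM) and the vinculin-binding *Sorbs3* (88.9, 104 and 155 FPKM). These 6 differed by less than 2-fold between libraries. Of the 45 detected genes 5 (11.1%) differed over 2-fold, against 12.7% of all detected genes. *Zyx* (zyxin) was at 150.3, 129 and 39.7 FPKM, *Rasgrp2*, the activator of Rap1 in platelets, at 81.1, 71.7 and 29.8 FPKM, and the FAK relative *Ptk2b* at 16.0, 13.6 and 5.18 FPKM. These 3 (6.67%) were over 2-fold lower in S52 than in both others, as were 4.83% of all detected genes. *Flna* (filamin A), which competes with talin for the beta tail, was at 86.9, 72.0 and 42.7 FPKM. Only *Apbb1ip*, the RIAM adaptor of blood cells (1.42, 1.27 and 0 FPKM), and *Enah* (0.987, 0.614 and 0.850 FPKM) had means below 1 FPKM.

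Of 10 genes for secreted integrin ligands 9 (90%) were detected, against 48.3% of all genes. *Thbs1* (thrombospondin-1), which platelets also store, was highest at 251, 185 and 95.3 FPKM. *Mfge8*, an RGD ligand of alphav chains, was at 96.5, 121 and 143 FPKM, and *Tgfb1*, whose latent form binds alphav integrins, at 46.8, 41.6 and 45.1 FPKM. *Postn* (periostin) was at 23.8, 15.6 and 61.8 FPKM, *Spp1* (osteopontin) at 43.9, 24.8 and 29.5 FPKM and *Npnt* (nephronectin), the ligand of alpha8, at 21.0, 16.9 and 23.8 FPKM. *Thbs1* and *Postn* (22.2% of the 9, against 12.7% of all detected genes) differed over 2-fold between libraries, in opposite directions for S52. *Tnc* (tenascin-C) stayed below 1 FPKM at 0.720, 0.316 and 0.525 FPKM.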

How the data were processed

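RNA of sorted adult lung ECs was sequenced in 3 libraries. The authors deposited a table of FPKM values, by gene symbol, for the mm10 genome. The submitters' processing notes name bcl2fastq 2.17, FastQC 0.11.5, Trimmomatic 0.36, TopHat2 2.1.0 and Cufflinks 2.2.1 without roles, whereas the study's methods describe other tools for its counts. The gene annotation is not given in the sources used here. FPKM keeps no strand, and overlapping genes can share fragments.

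Values were used without rescaling, and differences were taken on log2(FPKM + 1), which understates changes of low genes. Detection required a mean of 1 FPKM. No test was run. Libraries were mapped by their labels. Every member was named, as were, of the other pathway lists, the 6 highest, those over 2-fold between libraries and those below 1 FPKM. A gene that this rule covers is not reported here. Over 2-fold means a difference above 1 on that log2 scale. Members and lists were chosen with earlier results of these data known. Marker lists of alveolar type 1, airway, fibroblast and mesothelial cells were measured too, and over 2-fold lower in S52 than in both others were 1 of 4, 2 of 4, 0 of 4 and 1 of 1 detected genes. The mesothelial gene, *Msln* (1.33, 4.12 and 0 FPKM), was detected only through S38 and S44.

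Depth was estimated from the steps between low values among 7077 genes, and was chosen to bring these values near whole numbers of fragments. Of the 324, 412 and 207 low values used, 79.0%, 77.4% and 74.9% were whole fragments to within 0.15. On simulated data the largest error of the depth was 0.0101% (6000 genes, 3 depths). Positions and overlaps follow GENCODE M21 on GRCm38 (the assembly of mm10), and promoters follow RefSeq. Alternatives covered thresholds, pseudocount, rescaling, filters, left-out libraries and left-out blood-cell members. Python 3.11.15, pandas 2.3.3, numpy 2.4.6 and matplotlib 3.10.9 were used.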

Additional observations from a re-analysis of the deposited data

How the results depend on the processing

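The number of members over 2-fold between libraries was 7, and it ranged from 0 to 7 when each library was left out, being 0 without S52. It was 2 with the blood-cell members uncounted, a count chosen after seeing the data, and the number lower in S52 than in both others was then 1 instead of 6. The median S52 difference of the blood-cell members was -3.16 on the log2(FPKM + 1) scale, -3.95 with a pseudocount of 0.1 FPKM, -2.90 with *Itga2* and *Itga4* in the list (added after seeing the data) and -0.73 with undetected members included, whose values near 0 understate a difference on that scale. The share of *Fermt2* among kindlins was 75.7%, and 99.9% without *Fermt3*. The second value was fixed in advance by the low level of the only other kindlin left, *Fermt1* (mean of 0.108 FPKM). The remaining 49 recomputed summary values stayed within 1.5 times for counts or within 1 SD for shares and differences. For differences this SD was taken between the median difference of S52 from S38 and that from S44. *Itgb5* was within 2-fold after rescaling by the median ratio. Rescaling to equal sums moved the median of detected genes by -0.43 on the log2 scale and gave 10 members over 2-fold. The matching share of all detected genes is not given for this rescaling, so the count of 10 has none beside it. Without S52 no S52 difference can be formed. No paired analysis was possible because the result comes from no test.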
